A study of Mus musculus with 8 samples.

Results

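The immediate early genes described here are 10 genes chosen by name, Fos, Fosb, Jun, Junb, Egr1, Atf3, Ier2, Dusp1, Nr4a1 and Zfp36, out of 22180 genes measured. All 10 were found, each with 1 transcript cluster (the array's unit, a group of probes summed to 1 value). They were compared between 4 Ptch1ΔCol1 mice and 4 controls, mouse by mouse, as a check on the handling of the tissue. Gene expression was measured in 1 cm of whole colon starting 1.5 cm from the anus, frozen at once after death, 7 days after an intraperitoneal tamoxifen injection that the labels give as 5 mg per 25 g of body weight. The Ptch1ΔCol1 mice (labelled Hh activation) carried Col1a2CreER and Ptch1fl/fl, and 2 of the 4 also R26-LSL-tdTomato. Of the controls (labelled wt_ctrl), 2 were Ptch1fl/+ and 2 carried R26-tdTomato, and none carried Cre. Each group had 3 females and 1 male, control replicate 2 and Ptch1ΔCol1 replicate 3. The strain was C57BL/6 according to the methods, and no source used here gives the ages of these 8 mice or the time of day. Col1a2CreER drives recombination in collagen-producing stromal cells, while whole colon also holds epithelium, muscle, nerves and leukocytes. Since the controls lack Cre, the presence of Cre and the loss of Ptch1 cannot be told apart. A difference in handling between the groups cannot be told apart from either of them.

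Immediate early genes are transcribed within minutes of a stimulus, without the need for new protein, when kinases of the MAP kinase and cyclic AMP pathways act on factors already bound to their promoters, such as serum response factor and CREB. Their mRNAs are short-lived, so that their level in a tissue follows the last minutes to hours before it was frozen. Fos and Jun family proteins pair to form the transcription factor AP-1. In gut tissue these genes respond to growth factors, stretch, nerve activity and injury, and also to the time between death and freezing.

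Several of these promoters are known for cyclic AMP response elements, whose core is TGACG. The 250 bases before the transcription start in the RefSeq promoter table (build GRCm38.p6) are shown for Atf3, Dusp1 and Nr4a1, which had the largest differences between the groups, and for Fos, which varied most between mice. Capitals mark TGACG on either strand (CGTCA where it lies on the other strand). Each is written 5′ to 3′ on the strand of the gene. For Nr4a1 the start in the table lies downstream of the outermost start of the gene.
Fos, chr12:85473640-85473889, plus strand: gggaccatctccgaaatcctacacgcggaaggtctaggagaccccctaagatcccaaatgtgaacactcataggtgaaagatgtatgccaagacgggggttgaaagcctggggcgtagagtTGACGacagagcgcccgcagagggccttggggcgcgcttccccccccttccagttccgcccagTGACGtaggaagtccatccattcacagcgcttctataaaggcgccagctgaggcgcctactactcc
Atf3, chr1:191183334-191183583, minus strand: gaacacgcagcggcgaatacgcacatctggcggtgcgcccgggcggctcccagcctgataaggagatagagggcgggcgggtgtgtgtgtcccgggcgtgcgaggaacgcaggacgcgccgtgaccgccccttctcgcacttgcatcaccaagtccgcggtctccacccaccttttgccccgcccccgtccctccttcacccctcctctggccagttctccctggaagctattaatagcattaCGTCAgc
Dusp1, chr17:26508473-26508722, minus strand: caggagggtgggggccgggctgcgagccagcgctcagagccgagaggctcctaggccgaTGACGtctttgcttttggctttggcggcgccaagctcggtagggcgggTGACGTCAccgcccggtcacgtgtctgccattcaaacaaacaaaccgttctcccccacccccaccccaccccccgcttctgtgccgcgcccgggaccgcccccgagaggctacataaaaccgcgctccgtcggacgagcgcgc
Nr4a1, chr15:101266596-101266845, plus strand: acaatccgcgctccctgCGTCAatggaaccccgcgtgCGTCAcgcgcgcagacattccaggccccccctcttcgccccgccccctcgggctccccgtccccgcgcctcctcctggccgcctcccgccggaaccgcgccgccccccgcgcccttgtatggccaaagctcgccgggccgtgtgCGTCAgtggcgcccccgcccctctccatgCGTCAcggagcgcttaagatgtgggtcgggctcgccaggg

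The table held a promoter for 8 of the 10 genes (not for Egr1 and Ier2). TGACG occurred on either strand in 6 of the 8 (Fos, Fosb, Junb, Atf3, Dusp1 and Nr4a1), against 17.8% of the 32851 promoters in the table. The full palindrome TGACGTCA, which contains TGACG on both strands, was found in Dusp1, and in 1.55% of all promoters. The CArG box, the binding motif of serum response factor, was found on either strand in Zfp36, and in 1.47% of all. TATAAA on either strand was found in Fos, and in 12.4% of all. A match in these windows is a description of the sequence and not a test of binding. A motif farther than 250 bases from the start would not be seen, so absence here does not mean that a gene lacks it.

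The arrays were of 1 colour, with values on a log2 scale, medians between 4.69 and 4.8, and a mean correlation with the 7 other arrays between 0.988 and 0.993, lowest in Ptch1ΔCol1 replicate 3. With 8 arrays, precision is set by the number of mice. Gli1, the transcriptional reporter of Hh signalling, was between 6.36 and 6.42 in Ptch1ΔCol1 mice and between 4.81 and 5.20 in controls. Ptch1 was between 9.19 and 9.63 in Ptch1ΔCol1 mice and between 8.48 and 8.77 in controls. The paper states that Ptch1 mRNA is still present after recombination while the protein is truncated, and it counts Ptch1 among the Hh targets. The position of the Ptch1 probes relative to the floxed exon is not known here, so the Ptch1 level does not check the deletion. All 8 epithelium and all 6 smooth muscle markers lay above percentile 97 of gene brightness. The series title speaks of mucosa, whereas the methods give whole colonic tissue, and smooth muscle markers were among the brightest genes here.

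No immediate early gene differed between Ptch1ΔCol1 mice and controls at an adjusted p under 0.05 (limma over all 22180 genes, Benjamini-Hochberg), and for each of them the groups overlapped. Over all genes 0.0271% passed (0.018% higher and 0.00902% lower in Ptch1ΔCol1 mice), and the groups did not overlap for 5.37% (2.47% higher and 2.9% lower). Whole colon gives the mean over its cell types, so that more cells with a high level and more RNA per cell cannot be told apart. The means of 9 of the 10 were higher in Ptch1ΔCol1 mice and that of Junb was lower, where 47.1% of all genes were higher. Their median log2 fold change was 0.33, beside -0.01 over all genes. For 5 of them (Atf3, Dusp1, Nr4a1, Zfp36 and Egr1) the log2 fold change was at least 0.4, which was so for 1.88% of all genes. At an unadjusted p under 0.05 limma placed 4 of the 10 higher (Atf3, Zfp36, Dusp1 and Jun) and 0 lower, against 4.31% of all genes higher and 4.91% lower. The smallest adjusted p among the 10 was 0.462, for Atf3. The median was 0.20 without control replicate 4 and 0.21 without Ptch1ΔCol1 replicate 2.

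**Figure D1:**
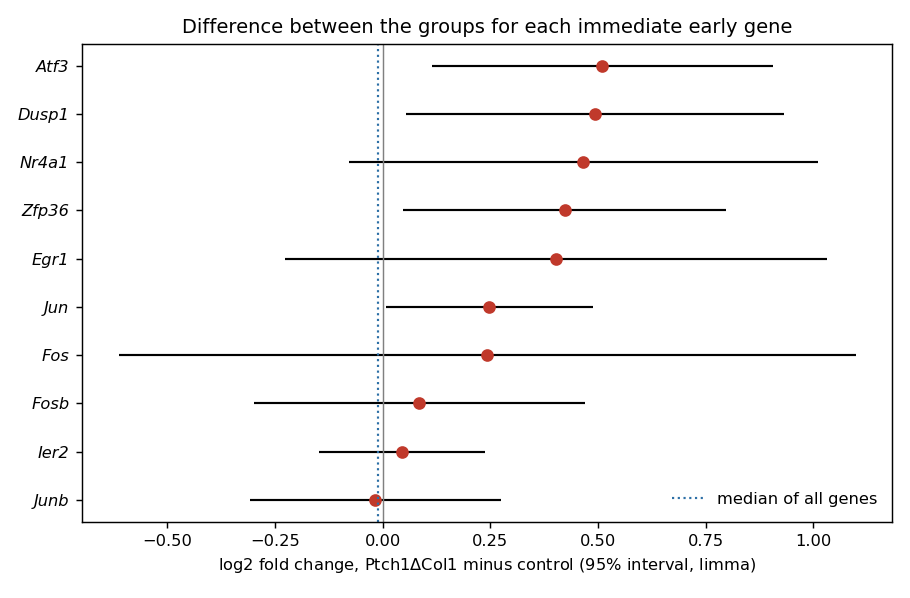
Log2 fold change (x axis, Ptch1ΔCol1 minus control, log2 units) of each immediate early gene, with its 95% interval from limma, n = 4 mice per group. The intervals of Atf3, Dusp1, Zfp36 and Jun lie above 0 before adjustment over all genes, and that of Fos is the widest, from -0.61 to 1.1.

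Among the AP-1 subunits, Fos, the partner that depends on Jun proteins to bind DNA, varied most. It was at 7.55, 8.14, 7.82 and 6.62 in control replicates 1 to 4 and at 7.79, 8.67, 6.96 and 7.68 in Ptch1ΔCol1 replicates 1 to 4. Control replicate 4 and Ptch1ΔCol1 replicate 3 were the lowest mice and Ptch1ΔCol1 replicate 2 the highest, and the 8 mice spanned 2.05 log2 units. The group means were 7.53 ± 0.65 in controls and 7.78 ± 0.70 in Ptch1ΔCol1 mice (log2 units, SD, n = 4). The difference in means, a log2 fold change, was 0.24 (standard error, SE, 0.38, limma adjusted p = 0.876, two-sided exact permutation p = 0.686 over the 70 relabellings of the mice). Its 95% interval from -0.61 to 1.1 holds differences in either direction. Without Ptch1ΔCol1 replicate 2 the log2 fold change was -0.06. The SD of Fos within groups, 0.68, was at percentile 99.4 of all genes.

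Fosb, the close relative of Fos, was at 6.21, 6.46, 6.61 and 6.40 in controls and at 6.27, 6.45, 7.04 and 6.26 in Ptch1ΔCol1 mice. Replicate 3 stood above the other Ptch1ΔCol1 mice, in contrast to its low Fos. Its log2 fold change was 0.09 (SE 0.17, limma adjusted p = 0.907) and was -0.09 without that mouse.

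Jun, which can bind DNA as a pair with itself or with Fos, differed little among mice. Controls were at 10.34, 10.57, 10.30 and 10.41 and Ptch1ΔCol1 mice at 10.41, 10.80, 10.77 and 10.63, so that 3 of the 4 Ptch1ΔCol1 mice were above every control and replicate 1 was at the level of control replicate 4. For Jun the log2 fold change was 0.25 (SE 0.11, 95% interval 0.01 to 0.49, limma adjusted p = 0.536, exact permutation p = 0.0857). Junb, the subunit often found to temper Jun, was at 9.17, 9.68, 9.25 and 9.17 in controls and at 9.36, 9.47, 9.14 and 9.23 in Ptch1ΔCol1 mice. Control replicate 2 was the highest of all, and the log2 fold change was -0.02 (SE 0.13, 95% interval -0.31 to 0.27, limma adjusted p = 0.98), which was 0.10 without that mouse.

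**Figure D2:**
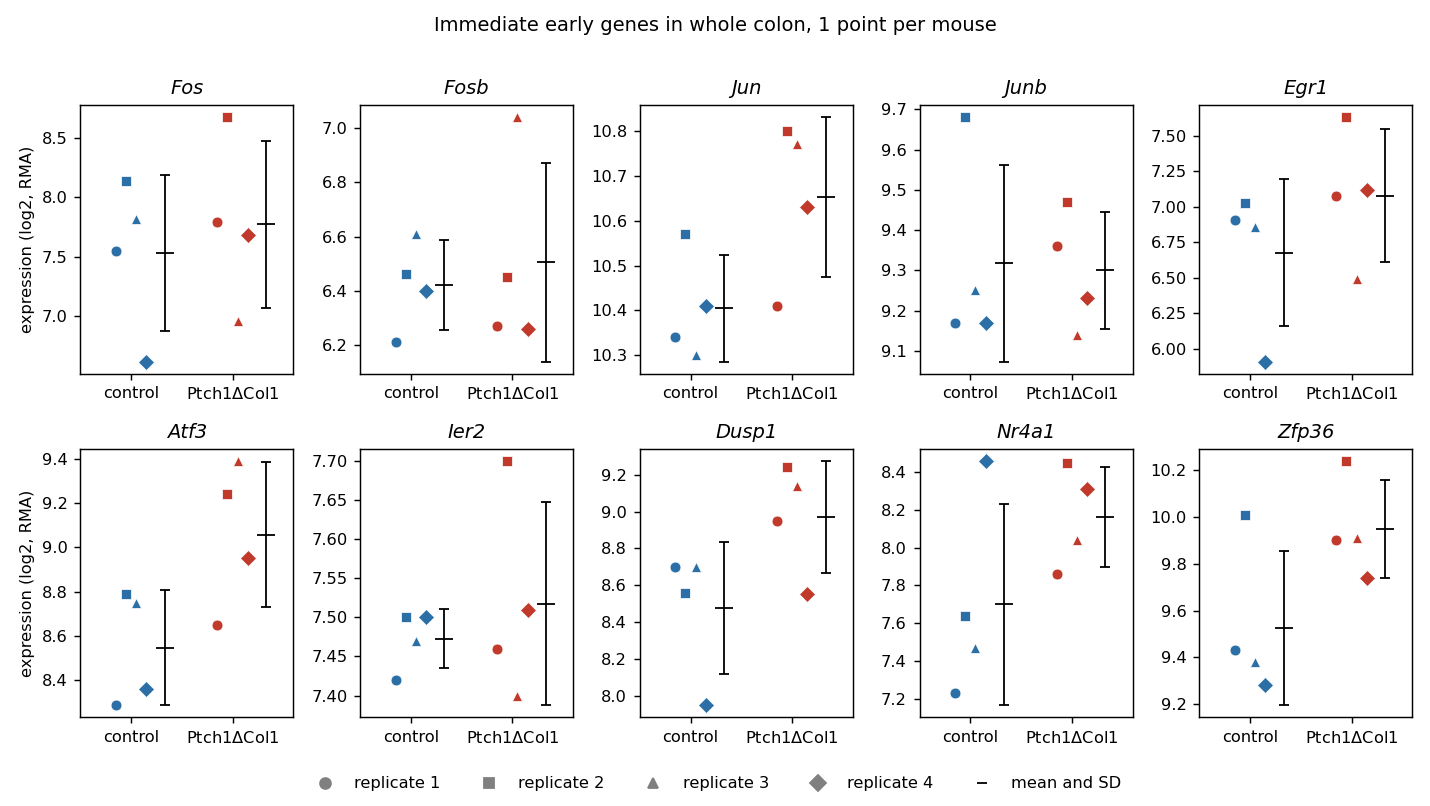
Expression (y axis, log2, RMA) of the 10 immediate early genes in 4 controls and 4 Ptch1ΔCol1 mice, 1 symbol per mouse with the shape giving the replicate, and the mean with SD at the right of each group. The groups overlap in every panel, with Atf3, Jun, Nr4a1 and Zfp36 showing all 4 Ptch1ΔCol1 mice above the median of the controls.

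Egr1, a zinc finger factor induced through serum response factor, resembled Fos. Controls were at 6.91, 7.03, 6.86 and 5.91 and Ptch1ΔCol1 mice at 7.08, 7.63, 6.49 and 7.12. The same pair of mice was low, control replicate 4 and Ptch1ΔCol1 replicate 3, and 3 of 4 Ptch1ΔCol1 mice were above every control. Egr1 had a log2 fold change of 0.40 (SE 0.28, 95% interval -0.23 to 1.03, limma adjusted p = 0.684, exact permutation p = 0.314), and it was 0.15 without control replicate 4.

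Nr4a1, an orphan nuclear receptor induced by calcium and cyclic AMP signals, was at 7.23, 7.64, 7.47 and 8.46 in controls and at 7.86, 8.45, 8.04 and 8.31 in Ptch1ΔCol1 mice. Here control replicate 4, the lowest mouse for Fos and Egr1, was the highest of all 8, and the other 3 controls were below every Ptch1ΔCol1 mouse. The log2 fold change was 0.47 (SE 0.24, 95% interval -0.08 to 1.01, limma adjusted p = 0.591, exact permutation p = 0.2). Without control replicate 4 it was 0.72 (limma unadjusted p = 0.00173, adjusted p = 0.511), the highest value with 1 mouse left out. The lowest was 0.31, without control replicate 1 (limma unadjusted p = 0.232, adjusted p = 0.823). Against R26-tdTomato controls alone it was 0.20.

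Ier2, a small nuclear protein gene, hardly varied. It lay between 7.42 and 7.50 in controls and between 7.40 and 7.70 in Ptch1ΔCol1 mice, a range of 0.3 log2 units over the 8 mice. Its log2 fold change was 0.05 (SE 0.09, 95% interval -0.15 to 0.24, limma adjusted p = 0.902). This was the narrowest interval of the 10.

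Atf3, a stress-induced factor of the ATF/CREB family, showed the largest difference of the 10. Controls were at 8.29, 8.79, 8.75 and 8.36 and Ptch1ΔCol1 mice at 8.65, 9.24, 9.39 and 8.95. Of the Ptch1ΔCol1 mice 3 were above every control, and replicate 1 lay between the controls. The means were 8.55 ± 0.26 and 9.06 ± 0.33 (SD, n = 4), a log2 fold change of 0.51 (1.42-fold, SE 0.18, 95% interval 0.11 to 0.91, limma adjusted p = 0.462, exact permutation p = 0.0857). In the order of p over all genes Atf3 stood at place 808.

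Dusp1 and Zfp36, whose products act as brakes on signalling and on mRNA, also had higher means. Dusp1, a phosphatase that switches off MAP kinases, was at 8.70, 8.56, 8.70 and 7.95 in controls and at 8.95, 9.24, 9.14 and 8.55 in Ptch1ΔCol1 mice. Of the Ptch1ΔCol1 mice 3 were above every control and replicate 4 was below 3 of them. Its log2 fold change was 0.49 (1.41-fold, SE 0.20, 95% interval 0.05 to 0.93, limma adjusted p = 0.515, exact permutation p = 0.114), and it was 0.32 without control replicate 4. Zfp36, which encodes a protein that binds AU-rich mRNAs and speeds their decay, was at 9.43, 10.01, 9.38 and 9.28 in controls and at 9.90, 10.24, 9.91 and 9.74 in Ptch1ΔCol1 mice. Control replicate 2 overlapped with the Ptch1ΔCol1 mice and the other 3 controls were below all of them. The log2 fold change was 0.42 (SE 0.17, 95% interval 0.05 to 0.80, limma adjusted p = 0.514, exact permutation p = 0.114). With 1 mouse left out it ran from 0.325 (without Ptch1ΔCol1 replicate 2) to 0.58 (without control replicate 2).

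Seen by mouse, the 10 genes did not share 1 order. Ptch1ΔCol1 replicate 2, a female, was the highest of the 8 mice for 6 genes and among the highest 2 for 9, and its mean deviation from the genes' averages was 0.44 log2 units. The other Ptch1ΔCol1 mice had mean deviations between 0.02 and 0.08. Among controls replicate 2, the male, was at 0.09, replicate 3 at -0.09, replicate 1 at -0.23 and replicate 4 at -0.35. Control replicate 4 was the lowest mouse for 4 genes. Ptch1ΔCol1 replicate 3, the male, was the highest of all for Fosb and Atf3 and the lowest for Junb and Ier2. Both males had the highest Atf3 of their group, while for Fos, Junb and Egr1 control replicate 2 was the highest of its group and Ptch1ΔCol1 replicate 3 the lowest of its own.

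**Figure D3:**
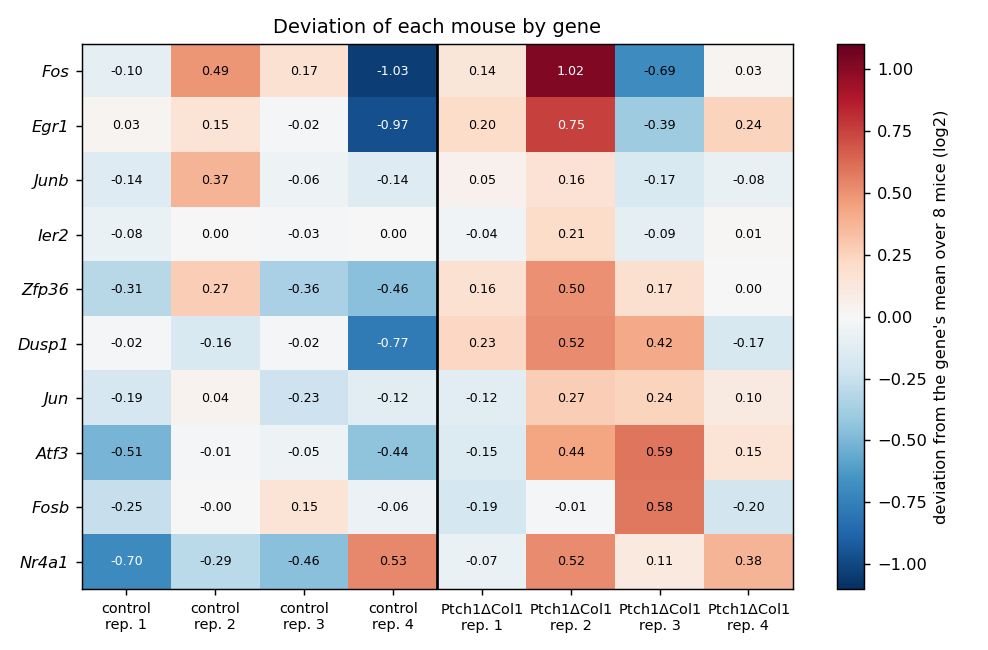
Deviation (colour and printed value, log2 units) of each mouse (columns) from the mean over the 8 mice of each immediate early gene (rows, in a chosen order that starts with Fos and Egr1). Ptch1ΔCol1 replicate 2 is above the mean for 9 genes, and control replicate 4 is low for Fos and Egr1 but high for Nr4a1.

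Of the 45 pairs of members 37 had a positive Pearson's r over the 8 mice, with a median of 0.44 (0.38 for deviations from the group means). Fos and Egr1 were the closest pair by Pearson's r, with r = 0.94 (two-sided exact permutation test over pairings, p = 0.00131, Benjamini-Hochberg adjusted p = 0.0592 over the 45 pairs) and Spearman's rho = 0.71 (exact p = 0.0576, adjusted p = 0.495). Without the 2 mice farthest from the median of Fos, r was 0.81, and within groups it was 0.97. Among the 22179 other genes Egr1 stood at place 3 by its r with Fos. The next pair by r was Jun and Atf3, with r = 0.87 (exact p = 0.00605, adjusted p = 0.136), rho = 0.83 (exact p = 0.0163, adjusted p = 0.366) and r = 0.64 without the 2 mice farthest from the median of Jun. By rho the closest pair was Fos and Junb, with rho = 0.91 (exact p = 0.00307, adjusted p = 0.138) and r = 0.73 (exact p = 0.0412, adjusted p = 0.284), and r was 0.78 without the 2 mice farthest from the median of Fos. No pair passed an adjusted p of 0.05. Nr4a1 had r = -0.12 with Fos, r = -0.09 with Egr1 and r = -0.08 with Dusp1 (exact permutation test, adjusted p between 0.852 and 0.894 over the 45 pairs). Correlations over arrays also share the normalization of each array.

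**Figure D4:**
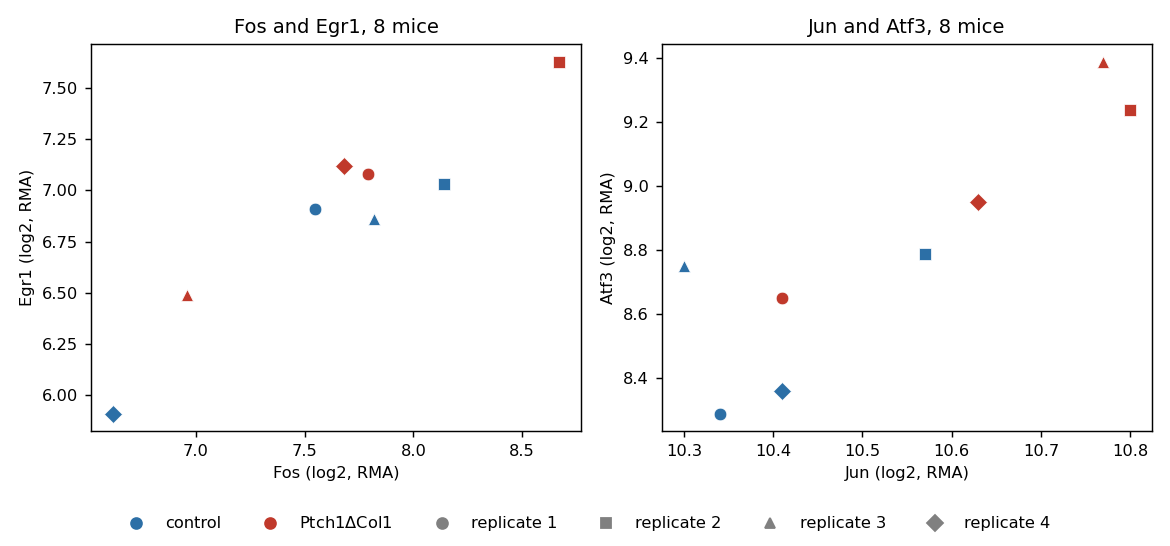
Fos against Egr1 (left) and Jun against Atf3 (right), both axes in log2 units (RMA), 1 symbol per mouse, blue for control and red for Ptch1ΔCol1, with the shape giving the replicate. Fos and Egr1 are high and low in the same mice, with r = 0.94, and Jun and Atf3 less closely, with r = 0.87.

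The genes outside the 10 whose pattern was most like their mean over the 8 mice were Mir27a (r = 0.97), Rnf141 (0.96), Synj2bp (0.96), Tmem181c-ps (0.94), Mdh1 (0.94), Gm6793 (0.94), 4930515G01Rik (0.94) and 1700044K03Rik (0.94). These are Pearson's r over 8 mice, taken as the highest of 22170 genes and given as a description. Among the members themselves r with the mean, which each helps to form, ran from 0.21 for Fosb to 0.93 for Zfp36. No other gene of the immediate early class was among these 8.

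Of 34 other immediate early genes listed, 33 were measured, and 23 had higher and 10 lower means in Ptch1ΔCol1 mice, with a median log2 fold change of 0.09. None passed over all genes. At an unadjusted p under 0.05, 6 were higher and 0 lower (4.31% and 4.91% of all genes), and the groups did not overlap for 3, all higher (2.47% of all genes). A higher mean was found for 47.1% of all genes. Ppp1r15a, which restores translation after stress, was between 5.65 and 5.90 in controls and between 6.04 and 6.65 in Ptch1ΔCol1 mice, without overlap. Its log2 fold change was 0.53 (SE 0.13, limma adjusted p = 0.334, exact permutation p = 0.0286, which is the lower limit with 4 mice in each group). Nfkbiz, an inducible regulator of NF-κB, was between 7.09 and 7.42 in controls and between 7.45 and 7.83 in Ptch1ΔCol1 mice, with a log2 fold change of 0.37 (SE 0.11, adjusted p = 0.418). Ier3 and Klf6 overlapped between the groups, with log2 fold changes of 0.41 (SE 0.14) and 0.24 (SE 0.10).

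Upstream of these genes, 16 of 20 listed kinases and transcription factors were measured, 8 higher and 8 lower, with a median log2 fold change of 0.00 and none past the test or under an unadjusted p of 0.05, and 1, lower, without overlap. Srf, which encodes serum response factor, had a log2 fold change of 0.14 (SE 0.08, limma adjusted p = 0.634). Of 8 delayed feedback inhibitors of ERK signalling 3 were higher and 5 lower, and none passed. Errfi1, an inhibitor of EGF receptor signalling, was between 9.34 and 9.79 in controls and between 9.82 and 10.04 in Ptch1ΔCol1 mice, without overlap, at a log2 fold change of 0.29 (SE 0.11, limma adjusted p = 0.510).

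Of 7 AU-rich transcripts of the kind that Zfp36 binds, 4 were higher and 3 lower, and none passed. Ptgs2, the inducible cyclooxygenase and itself an early response gene, was at 7.23, 7.26, 7.07 and 6.70 in controls and at 7.42, 7.74, 7.29 and 7.65 in Ptch1ΔCol1 mice. The groups did not overlap, with a log2 fold change of 0.46 (SE 0.15, limma adjusted p = 0.448, exact permutation p = 0.0286).

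Lists that follow hormones, oxygen and time of day were read beside the immediate early genes. Of 12 glucocorticoid response genes 7 were higher and 5 lower, of 12 measured hypoxia genes 6 and 6, and of 13 measured clock genes 7 and 6, with medians of 0.02, 0.00 and 0.05 and none past the test. By mouse, mean deviations of the glucocorticoid genes were between -0.20 and 0.25 in Ptch1ΔCol1 mice and between -0.03 and 0.03 in controls. Those of the hypoxia genes were between -0.15 and 0.14 in Ptch1ΔCol1 mice and between -0.05 and 0.05 in controls. For clock genes the limits were -0.12 and 0.17, and -0.08 and 0.001. Ptch1ΔCol1 replicate 3 was the highest mouse on each list. The cause of this spread was not tested. Cry2, a repressor of the clock, was between 6.95 and 7.09 in controls and between 7.29 and 7.69 in Ptch1ΔCol1 mice, the smallest p of these lists (log2 fold change 0.49, SE 0.10, limma adjusted p = 0.278). Npas2, an activator of the clock, did not overlap either, at 0.28 (SE 0.09, adjusted p = 0.454). Per1, which answers both the clock and glucocorticoids, was at 0.54 (SE 0.15, adjusted p = 0.405) with overlap. On the other side were Ddit4, an inhibitor of mTOR, at -0.37 (SE 0.13, adjusted p = 0.470) and Ndrg1, a hypoxia target that did not overlap, at -0.27 (SE 0.08, adjusted p = 0.405).

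**Figure D5:**
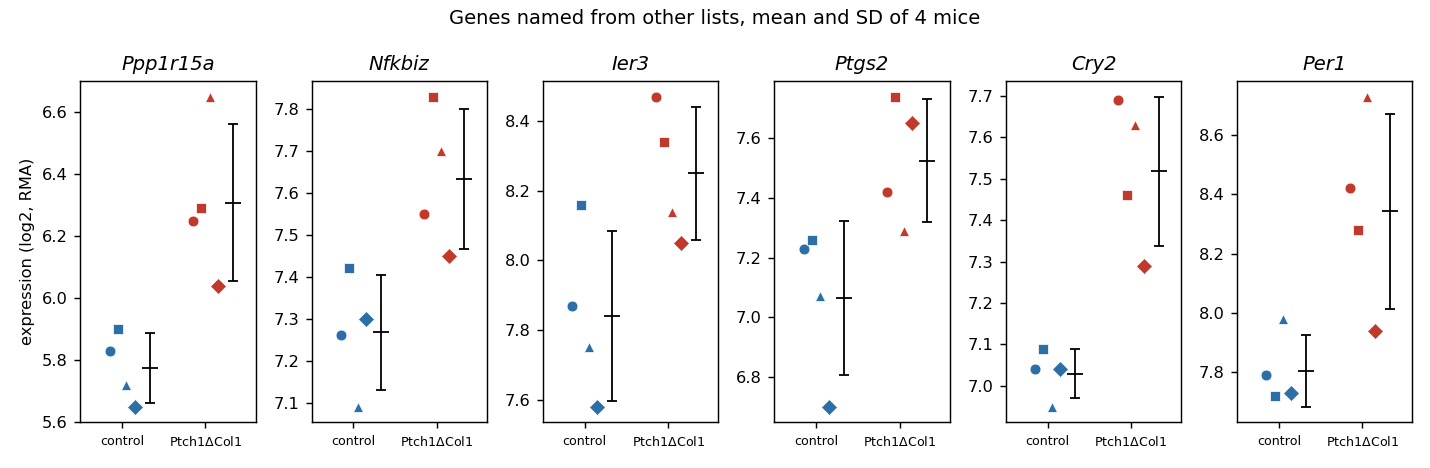
Expression (y axis, log2, RMA) of 6 genes named from the other lists in 4 controls and 4 Ptch1ΔCol1 mice, 1 symbol per mouse with the shape giving the replicate, and the mean with SD. Ppp1r15a, Nfkbiz, Ptgs2 and Cry2 do not overlap between the groups, while Ier3 and Per1 do. These genes were picked by their small p, so their separation is no result of its own. The groups did not overlap for 5.37% of all genes. All 6 have higher means in Ptch1ΔCol1 mice, and Ddit4 and Ndrg1, named with lower means, are not drawn.

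Of the marker lists, the 6 smooth muscle markers were all higher, and their summed level (log2 of the summed linear values) was between 14.8 and 14.9 in Ptch1ΔCol1 mice and between 14.6 and 14.7 in controls, without overlap. Control replicate 4, the lowest mouse for 4 immediate early genes, was also the lowest for these markers, with a mean deviation of -0.22. Of 5 measured enteric neuron and glia markers 4 were higher, with Elavl4 and S100b below percentile 40 of brightness, and their mean deviations did not overlap (0.07 to 0.17 in Ptch1ΔCol1 mice and -0.20 to -0.02 in controls), while the summed levels did (9.32 to 9.74 and 9.23 to 9.58). All 4 measured B cell markers had lower means in Ptch1ΔCol1 mice, the summed level being 6.85 to 8.54 there and 7.89 to 9.53 in controls, with Pax5 below percentile 40. Endothelium markers were lowest in Ptch1ΔCol1 replicate 3, with a mean deviation of -0.74. The same mouse was also the lowest for fibroblast (-0.45), macrophage (-0.52), B cell (-1.26) and T cell (-0.62) markers. Fos and Egr1 were low in this mouse, while Fosb and Atf3 were at their highest. The 5 neutrophil markers, of which S100a8, S100a9 and Cxcr2 were below percentile 40, were highest in Ptch1ΔCol1 replicate 2, the mouse highest for 6 immediate early genes, at a mean deviation of 0.81, and their summed level was 11.2 to 11.9 in Ptch1ΔCol1 mice and 11.01 to 11.4 in controls. By group means 3 of these markers were higher and 2 lower in Ptch1ΔCol1 mice. At an unadjusted limma p under 0.05, 1 was lower and 0 higher. All 5 T cell markers had lower means, and 6 of 8 epithelium, 4 of 6 fibroblast, 3 of 5 endothelium and 2 of 5 macrophage markers higher ones. All 4 measured adipocyte and all 5 skeletal muscle markers had higher means, with Lep, Myh4 and Mylpf below percentile 40. No marker passed over all genes. The part of these cell types in the values of the immediate early genes was not tested.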

How the data were processed

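RNA with an RNA integrity number over 8 from whole colon of 8 mice was hybridised by the authors to Affymetrix Mouse Gene ST 2.0 arrays and normalized by robust multi-array average (RMA) with median polish. The deposited values are log2 expression per transcript cluster with 2 decimals. No source used here names the software. RMA draws arrays to 1 distribution.

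The values were used as deposited. Of 41345 clusters, 23521 have 1 gene symbol (23328 matched to RefSeq by gene ID), 1820 have several and 16004 none. The brightest cluster stood for each of 22180 genes. Ptch1ΔCol1 mice and controls were tested against each other in limma 3.58.1 (R 4.3.3), with Benjamini-Hochberg adjustment over all genes at a threshold of 0.05, and the fit was checked on simulated data. The simulated differences were larger than that of any immediate early gene here, so this check does not speak for differences of their size. The 95% intervals use limma's moderated standard error. Exact permutation tests were run in Python 3.11.15. The members, lists and tests were chosen with earlier results of these data known. All 10 members are named, and of the 4 genes of smallest p in each other list those under an unadjusted p of 0.05, or the first, a narrowing made after the values were seen. Alternatives were another cluster choice, a filter on dim genes (percentile 40), normalization, variance model, array weights, covariates, each kind of control, females only and each mouse left out.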

Additional observations from a re-analysis of the deposited data

Results flagged for a closer look

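In 3 cases 1 mouse stood far from the other 3 of its group. Junb was at 9.68 in control replicate 2 and between 9.17 and 9.25 in the other controls. Egr1 was at 5.91 in control replicate 4 and between 6.86 and 7.03 in the other controls. Errfi1 was at 9.34 in control replicate 4 and between 9.72 and 9.79 in the other controls. With 22 genes and 44 groups looked at, about 2.2 such cases are met by chance.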

How the results depend on the processing

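No immediate early gene passed in any of the 21 alternatives, in which the smallest adjusted p was 0.299 (Zfp36, females only, limma). Between 1 and 5 of the 10 had an unadjusted p under 0.05 with a higher mean in Ptch1ΔCol1 mice. Their median log2 fold change was between 0.18 (Ptch1fl/+ controls alone) and 0.47 (females only), and between 0.20 and 0.45 when 1 mouse was left out. Jun, Egr1, Atf3, Dusp1, Nr4a1 and Zfp36 were higher under each alternative run. Fos was at -0.07 against Ptch1fl/+ controls alone and between -0.062 and 0.51 when 1 mouse was left out. Fosb was at -0.08 in females and between -0.093 and 0.17 with 1 mouse left out. Junb was at 0.015 after median centring, 0.047 with array weights, 0.09 against R26-tdTomato controls alone, 0.16 in females and between -0.074 and 0.10 with 1 mouse left out. Ier2 was between -0.016 and 0.084 with 1 mouse left out. The cause was not tested.

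Over all genes, same-numbered mice did not deviate together (correlations of deviations between -0.05 and 0.03). This does not speak for the 10 genes alone. With the replicate number as a block the SE was 0.094 in place of 0.177 for Atf3. It was 0.105 in place of 0.196 for Dusp1 and 0.095 in place of 0.168 for Zfp36. For Ier2 it was slightly larger, 0.092 in place of 0.086. Whether same-numbered mice shared an order of handling was not tested. With the replicate number as a block, 0 of the 10 passed (5 at an unadjusted p under 0.05, smallest adjusted p 0.340, limma), and over all genes 3 passed in place of 6. The count over all genes was also 11 with a trended and robust variance, 3 after quantile normalization, 2 with the reporter in the model (R26-tdTomato and R26-LSL-tdTomato taken as 1 reporter, which the labels do not state), 1 with sex in the model, 2 with every cluster tested, 3 in females, 1 against Ptch1fl/+ controls alone and 0 against R26-tdTomato controls alone, and between 1 and 12 with 1 mouse left out. The 12 genes named from the other lists, for which the alternatives were added after the values were seen, kept their direction in each and did not pass in any.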
